A study of Mus musculus with 5 samples.

Results

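A set of 8 genes that hypoxia-inducible factor (HIF) is known to induce, and that regulate growth, transcription or lipid storage, was read in RNA sequencing of mouse CD8 T cells. They were chosen by name as Ddit4, Ndrg1, Mxi1, Cited2, Zfp395, Narf, Hilpda and Adm, with earlier results of these data known. The deposited table of 11564 genes listed 7 of the 8, and all 7 passed the filter on low values that left 11534 genes for testing. Adm, which encodes the vasodilator peptide adrenomedullin, is not among the listed genes and was not analysed here.

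The sorted CD8 T cells are cytotoxic lymphocytes, which destroy infected or malignant cells. The study compared 3 libraries with the genotype PHD2-deltaT, described in the labels as a PHD2 knockout, with 2 libraries from WT mice. The labels used here give no Cre driver, mouse age or strain, and no treatment. They do not say whether the libraries of a genotype came from separate mice, so the spread behind the p-values may be technical.

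PHD2, encoded by Egln1, is a prolyl hydroxylase that uses oxygen to mark HIF alpha subunits for destruction through the VHL ubiquitin ligase. Stabilised HIF pairs with ARNT and binds short DNA elements with the core ACGTG or GCGTG, the hypoxia response element. Besides glycolysis, HIF targets include brakes on growth signalling, antagonists of MYC, feedback regulators of HIF itself and proteins that hold lipid in droplets.

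Regulatory sequences of the members are shown first, as the place to look for the letters that HIF is known to bind. RefSeq (GRCm38.p6) promoters, running from 250 bases before to 50 bases after a transcription start, were found for 5 of the 7 listed members. They were searched for ACGTG and GCGTG on both strands, overlapping matches being joined. For Ndrg1 and Zfp395 no promoter was used here. In the lines that follow, capitals mark the match. Each line is written 5′ to 3′ on the gene's strand.
Ddit4, the 250 bases before the start, chr10:59951771-59952020, minus strand: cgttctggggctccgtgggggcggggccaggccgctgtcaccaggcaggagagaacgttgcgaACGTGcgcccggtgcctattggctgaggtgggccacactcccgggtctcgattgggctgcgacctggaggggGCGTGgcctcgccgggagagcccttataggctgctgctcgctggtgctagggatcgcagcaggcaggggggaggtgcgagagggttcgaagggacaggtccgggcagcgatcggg
Hilpda, chr6:29272503-29272531, plus strand: caaccgcgagccGCGTGctttccgtgact
Hilpda, chr6:29272571-29272599, plus strand: gatggccagcggACGTGccccagggcgag
Hilpda, chr6:29272606-29272634, plus strand: caggttcggtacGCGTGcgcagtctccga
Mxi1, chr19:53329335-53329363, plus strand: cctcggcacccgACGTGcactggcggggg
Mxi1, chr19:53329658-53329686, plus strand: tgcggatgatcaACGTGcagcgcctgctg
Cited2, chr10:17723063-17723092, plus strand: gcagccgctgcgCACGTGcagcgcggactc
Narf, chr11:121237095-121237123, plus strand: gaggcggggtgaGCGTGccataccatcct

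The whole stretch is given for Ddit4, the member with the largest change, and only the surroundings of each match for the rest. The Ddit4 matches begin 187 and 115 bases before the RefSeq start. In the GENCODE annotation, used below for gene positions, Ddit4 reaches 59951834, upstream of that start. Part of the 250 bases thus lies inside the gene as GENCODE gives it. Hilpda has 2 annotated starts, and the 3 matches begin 111, 43 and 8 bases before the downstream start. The first of them begins 27 bases after the upstream start, so this site counts in both Hilpda promoters. The Mxi1 matches lie before 2 internal starts, and the promoter at its first start held 0. The Cited2 match is a palindrome that reads the same on both strands. In all, 7 of 8 promoters of these 5 genes held a match, and all 5 genes had a match in at least 1 promoter. Of all 32851 RefSeq promoters of this length 43.8% held one, and of the 8474 tested genes with a promoter 69.2% had a match in at least 1. A match is a description of letters and not a measured binding site.

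The deposited values are normalized counts, with library totals of 19593220 to 20253007. The reads inferred behind them numbered 10818529 to 15382182 per library, and a member had between 196 and 1624 inferred reads in a library. The targeted gene was read first. Egln1 had 5447, 4327 and 4993 normalized counts in the libraries labelled PHD2-deltaT, beside 1927 and 2182 in WT, so it was higher where the label says knockout. Gene-level values cover all exons and cannot check the deletion of some of them, and directions here are those of the libraries labelled PHD2-deltaT. The well-known HIF targets Egln3, Bnip3 and Vegfa, which are not members, were also higher there, with log2 fold changes of 3.25, 2.73 and 2.02 (limma-trend adjusted p = 2.1e-09, 1.7e-08 and 5.9e-08). Of 10 markers of CD8 T cells all 10 were listed, with a summed level of 105746 to 106738 in PHD2-deltaT and 99961 to 106637 in WT. Of 13 myeloid and dendritic markers 3 were listed (summed level 169 to 173 against 142 to 145), and of 13 B cell and class II markers 7 (5844 to 6642 against 6077 to 6611). Lyz2, Csf1r, Cd79a, Ms4a1 and Cd4 were not among the listed genes. Of 4 natural killer markers 3 were listed (175 to 223 against 198 to 202), of 4 CD4 T cell markers 3 (92.9 to 109 against 65.4 to 66.4), of 6 endothelial and stromal markers 1 (Pecam1), and of 6 erythroid and platelet markers 0. Of the 7 listed B cell and class II markers, Cd74 (log2 fold change 0.61) and H2-Ab1 (2.87) were called higher in PHD2-deltaT and 5 were not called, among them the class II genes H2-Aa (0.25) and H2-Eb1 (0.51) and the immunoglobulin gene Ighm (-0.10). Of the 3 myeloid and dendritic markers Itgax (1.06) was called higher, and Cd68 (-0.34) and Xcr1 (-0.04) were not called. Of the 10 CD8 T cell markers, Thy1 (0.57), Cd2 (0.39) and Cd247 (0.29) were called higher and 7 were not called, from -0.19 for Cd5 to 0.02 for Cd8b1, and the median log2 fold change of the list was 0.003. The part of these shifts in the values below was not tested, and in bulk RNA a change in cell makeup and a change in RNA per cell cannot be told apart.

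Of the 7 listed members, 4 rose in the libraries labelled PHD2-deltaT: Ddit4, Hilpda, Ndrg1 and Zfp395. None fell, and Mxi1, Cited2 and Narf did not pass the test. A call is an adjusted p under 0.05 in limma-trend on log2(value + 1), adjusted over all genes tested; 2.97% of genes were called higher. The median log2 fold change of the 7 members was 0.51, beside -0.01 for all genes tested. All 7 log2 fold changes were above 0, as were those of 48.2% of genes. For 6 of the 7, every PHD2-deltaT library lay above every WT library, which held for 16% of genes.

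**Figure D1:**
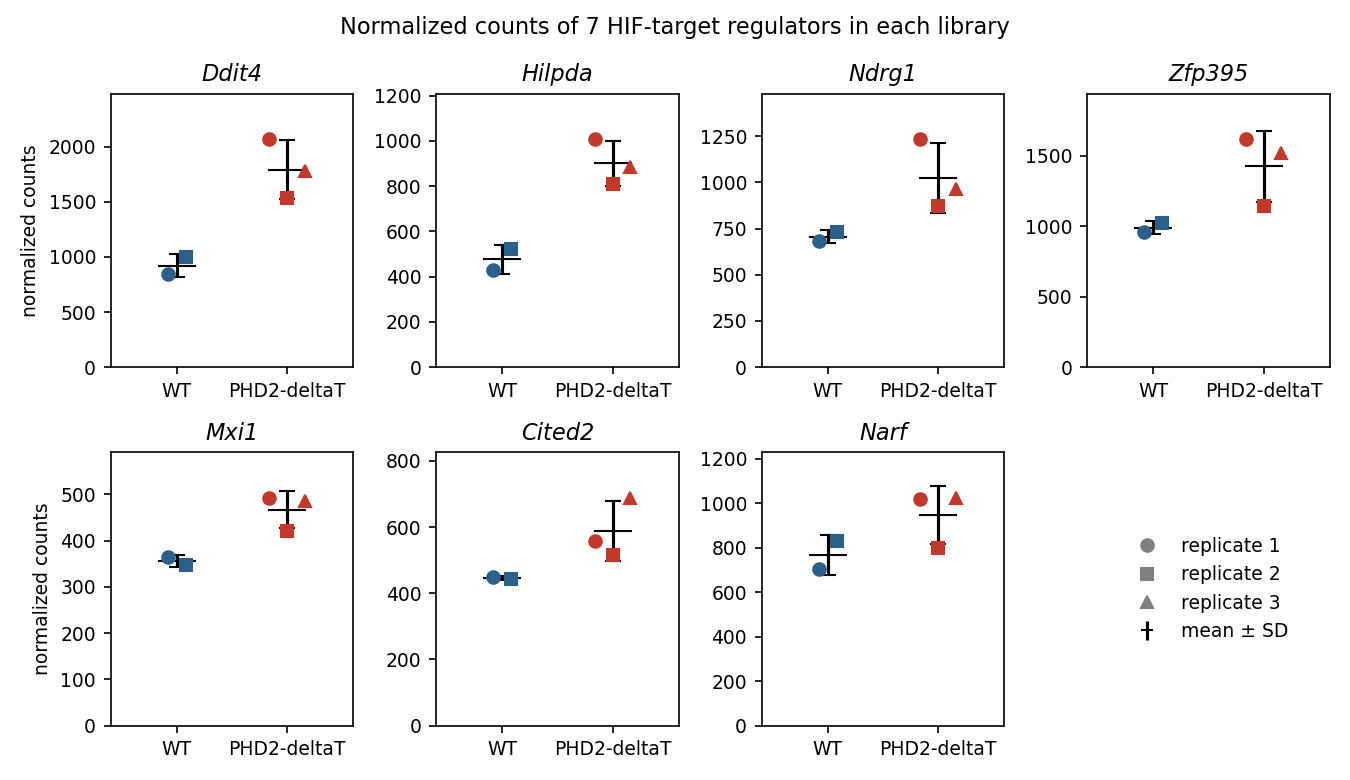
Normalized counts (vertical axes, from 0) of the 7 members in each library, WT in blue and PHD2-deltaT in red, with the symbol giving the replicate and the black bar the mean ± SD (n = 2 and n = 3). The groups are apart in every panel except Narf, and PHD2-deltaT replicate 2 (square) is the lowest red symbol in each.

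Among the regulators of growth, Ddit4 rose most. Its product, also called REDD1, restrains the growth kinase complex mTORC1 through the TSC complex. Ddit4 (ENSMUSG00000020108; mm10 chromosome 10, 59949669 to 59951834, minus strand, 3 exon blocks) had 2069, 1530.2 and 1777 normalized counts in PHD2-deltaT, against 847 and 998 in WT. The lowest PHD2-deltaT library thus lay well above the higher WT library. Means were 1792 ± 270 (SD, n = 3) and 922 ± 107 (SD, n = 2). The log2 fold change was 0.95 with a standard error of 0.11 (95% interval 0.72 to 1.18; limma-trend adjusted p = 4.5e-05), a 1.93-fold difference. Among the 11534 genes, 150 had a larger log2 fold change.

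Ndrg1, a cytoplasmic stress-responsive protein that MYC family factors repress, rose less. Ndrg1 (ENSMUSG00000005125; chromosome 15, 66929318 to 66969640, minus strand, 16 exon blocks) had 1234, 874 and 966 normalized counts in PHD2-deltaT, against 683 and 730.2 in WT. The groups were apart, although PHD2-deltaT replicate 1 stood well above the other 2 libraries of its genotype. The log2 fold change was 0.52 ± 0.12 (SE; 95% interval 0.27 to 0.77; limma-trend adjusted p = 0.017). It was not called when WT replicate 1 (adjusted p = 0.13) or WT replicate 2 (0.060) was left out. Exons of predicted genes overlap 8.43% of its exon bases on the opposite strand, and the sources used here do not say whether counting used strand.

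The lipid regulator Hilpda changed about as much as Ddit4. It encodes a small lipid droplet protein that inhibits the triglyceride lipase ATGL and so favours fat storage in droplets. Hilpda (ENSMUSG00000043421; chromosome 6, 29272488 to 29275446, plus strand, 3 exon blocks) had 1008, 810 and 884 normalized counts in PHD2-deltaT, against 429.9 and 522 in WT. Every PHD2-deltaT library exceeded the higher WT library by more than the gap between the WT libraries. Means were 900.4 ± 100.1 (SD, n = 3) and 476 ± 65.2 (SD, n = 2). The log2 fold change was 0.92 ± 0.11 (SE; 95% interval 0.68 to 1.15; limma-trend adjusted p = 7.0e-05), or 1.89-fold, and 162 genes had a larger one. Of the members, Ddit4 and Hilpda were the pair called in every fit that left out 1 library.

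Of the 3 transcriptional regulators, Zfp395 passed the test. It is the mouse counterpart of human ZNF395, a zinc finger factor described as hypoxia-induced in human cells. Zfp395 (ENSMUSG00000034522; chromosome 14, 65358389 to 65398930, plus strand, 12 exon blocks) had 1617, 1140.1 and 1518 normalized counts in PHD2-deltaT, against 958 and 1021 in WT. PHD2-deltaT replicate 2 lay close to the WT libraries and the other 2 far above them. The log2 fold change was 0.51 ± 0.12 (SE; 95% interval 0.26 to 0.76; limma-trend adjusted p = 0.018). The call was missing with WT replicate 1 (adjusted p = 0.13) or WT replicate 2 (0.064) left out, and under robust eBayes (0.055).

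Mxi1 encodes a partner of MAX that competes with MYC and recruits SIN3 co-repressors. Mxi1 (ENSMUSG00000025025; chromosome 19, 53310518 to 53375810, plus strand, 11 exon blocks) had 493, 421 and 486 normalized counts in PHD2-deltaT, against 364 and 347 in WT. The groups did not overlap. The log2 fold change of 0.39 ± 0.11 (SE; 95% interval 0.16 to 0.62) fell short of the threshold (limma-trend adjusted p = 0.060). It passed without PHD2-deltaT replicate 2 (0.024), under array weights (0.038) and with libraries scaled to a common median (0.047). It did not pass without PHD2-deltaT replicate 1 (limma-trend adjusted p = 0.17) or replicate 3 (0.15), or in limma-voom on inferred reads (0.10). With WT replicate 1 or WT replicate 2 left out, the log2 fold change was 0.42 or 0.35.

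Cited2 encodes a feedback regulator that binds the coactivators CBP and p300 at the surface HIF alpha uses and so displaces HIF. Cited2 (ENSMUSG00000039910; chromosome 10, 17723218 to 17725674, plus strand, 1 exon block) had 558, 516 and 689 normalized counts in PHD2-deltaT, against 450.0 and 443 in WT. The groups were again apart, with PHD2-deltaT replicate 3 the highest. Here the log2 fold change was 0.38 ± 0.12 (SE; 95% interval 0.14 to 0.63; limma-trend adjusted p = 0.085). Without PHD2-deltaT replicate 2 it was 0.47 and passed (adjusted p = 0.028). Without PHD2-deltaT replicate 3 it was 0.26 and did not pass (limma-trend adjusted p = 0.28). With WT replicate 1 or WT replicate 2 left out it was 0.40 or 0.37.

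Narf, which encodes a nuclear protein that binds the prelamin A tail, had the smallest difference. Narf (ENSMUSG00000000056; chromosome 11, 121237253 to 121255856, plus strand, 11 exon blocks) had 1020 normalized counts in PHD2-deltaT replicate 1, 798 in replicate 2 and 1026 in replicate 3. The WT libraries had 704 and 832, so PHD2-deltaT replicate 2 lay between them. The log2 fold change was 0.30 ± 0.11 (SE; 95% interval 0.06 to 0.54; limma-trend adjusted p = 0.19). Without PHD2-deltaT replicate 2 it was 0.42 (adjusted p = 0.022), and without WT replicate 1 it was 0.18 (0.67).

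**Figure D2:**
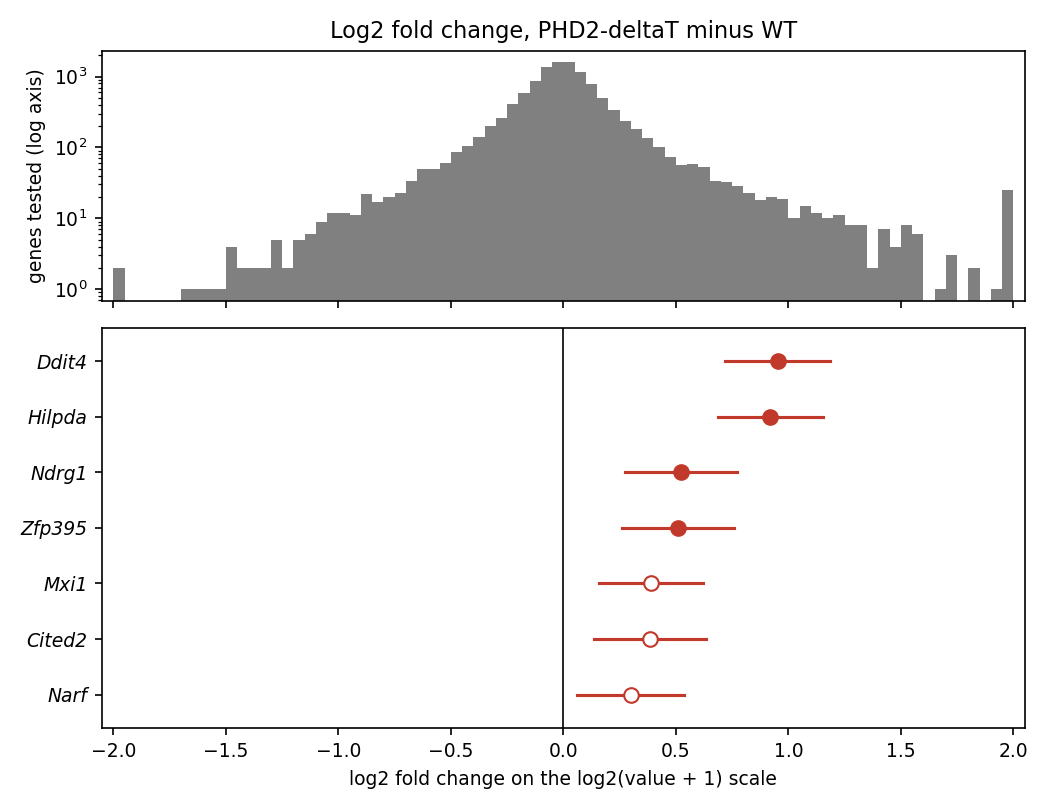
Upper panel, number of tested genes (log axis) by log2 fold change, with genes beyond 2 in size gathered in the outermost bins; lower panel, each member's log2 fold change with its 95% interval, filled where the adjusted p was under 0.05. The intervals of Ddit4 and Hilpda begin at 0.72 and 0.68, above the upper ends for Mxi1 (0.62), Cited2 (0.63) and Narf (0.54).

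The authors' deposited table gave the same 4 members an FDR under 0.05. Among the 11339 genes with an FDR in the authors' deposited table, 2.95% passed and were higher in PHD2-deltaT. The values there were 1.67e-12 for Ddit4, 2.22e-10 for Hilpda, 0.00218 for Zfp395 and 0.0030 for Ndrg1, and the log2 fold changes in the authors' deposited table were 0.79, 0.74, 0.42 and 0.43 in size. The log2 fold changes there are not on the scale used here, since that of Egln3 was 1.36 in size there and 3.25 here. Mxi1, Cited2 and Narf had an FDR of 0.081, 0.090 and 0.23 in the authors' deposited table. The authors' deposited selection of 132 higher genes, 1.14% of those listed, held Ddit4 and Hilpda and no other member. The smallest log2 fold change in the authors' selections of higher and lower genes was 0.5 in size, above those of Zfp395 and Ndrg1.

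Levels of the members relative to one another were compared as normalized counts per kilobase of annotated exon, the union over all transcripts of a gene. In WT the mean level per kilobase was 525 for Ddit4, 432 for Hilpda, 209 for Zfp395, 182 for Cited2, 160 for Narf, 107 for Ndrg1 and 52.1 for Mxi1. The order of mean levels per kilobase was the same in PHD2-deltaT, from 1021 for Ddit4 and 816 for Hilpda down to 68.4 for Mxi1. Each of the 5 libraries, read by itself, gave this order too. The nearest neighbours were Cited2 and Narf in WT replicate 2, at 180.2 and 173 per kilobase. Levels varied more between libraries than some neighbours differed, since across the PHD2-deltaT libraries those of Ddit4 ran from 872 to 1179 and those of Hilpda from 734 to 914. By mean normalized count the members ranked between the 41.1 and 70.4 percentiles of the listed genes.

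The members shared a pattern among the libraries of a genotype. In all 7, PHD2-deltaT replicate 2 had the lowest value of the 3 PHD2-deltaT libraries. That library was the lowest of the 3 for 35.6% of all genes tested and for 49.3% of those called higher. On the log2 scale the members' median deviation from the genotype mean was -0.21 in that library, beside -0.00 for all genes tested. Deviations ran from -0.15 for Mxi1 to -0.31 for Zfp395. Replicate 1 was the highest PHD2-deltaT library for 5 members and replicate 3 for Cited2 and Narf. In WT, replicate 2 was the higher library for 5 of the 7, all but Mxi1 and Cited2. Egln1 was also lowest in PHD2-deltaT replicate 2 among the libraries of its genotype, as its values above show. So were the HIF targets Egln3, Bnip3 and Vegfa, which are not members. Their normalized counts in PHD2-deltaT replicates 1, 2 and 3 were 1760, 1073 and 1453 for Egln3. For Bnip3 they were 2085, 1330 and 1787, and for Vegfa 992, 715 and 843. The low replicate 2 was thus not particular to the members.

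**Figure D3:**
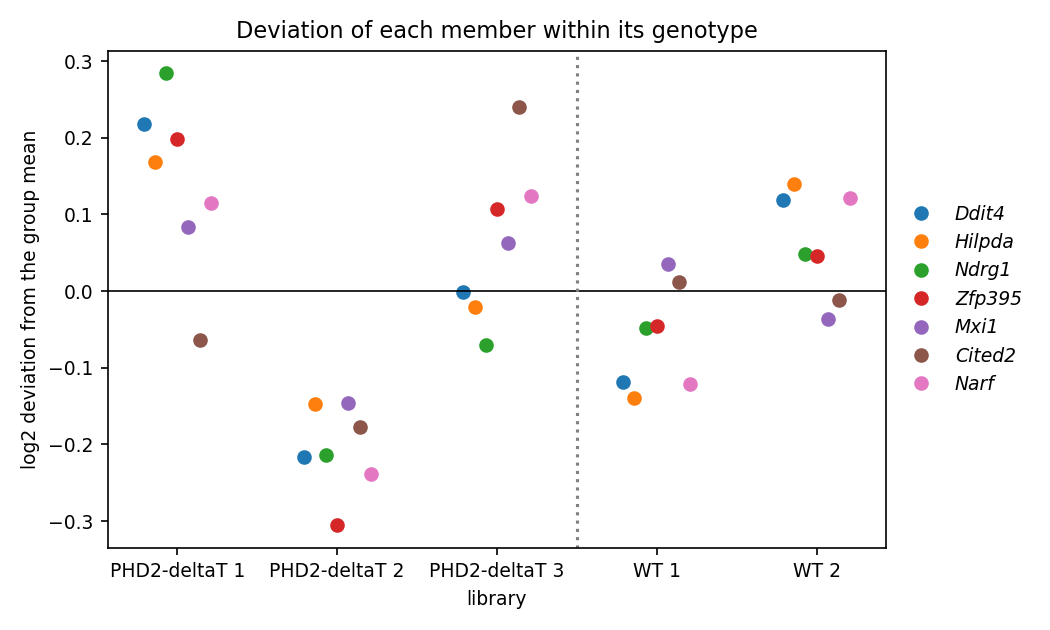
Deviation of each member from the mean of its genotype on the log2 scale (vertical axis) in each of the 5 libraries (horizontal axis), with colour giving the gene. All 7 points of PHD2-deltaT replicate 2 lie below 0, between -0.31 and -0.15.

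Leaving out a library moved the number of members called but turned no direction. All 7 were called without PHD2-deltaT replicate 2, where 3.14% of all genes were called higher. Without replicate 1 or replicate 3 of that genotype 4 were called, beside 2.71% and 2.52% of all genes. Without WT replicate 1, and likewise without WT replicate 2, 2 were called (Ddit4 and Hilpda). The share of all genes called higher in these last fits was 2.11% and 1.82%. In limma without the mean-variance trend 0 of the 7 were called, and 0.659% of genes were called higher. There Hilpda had an adjusted p of 0.072 and Ddit4 of 0.088, and 6 of the 7 members had an unadjusted p under 0.05, as did 7.89% of genes in the same direction. In limma-voom on the inferred reads 2 of the 7 were called, beside 2.42% of genes called higher.

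**Figure D4:**
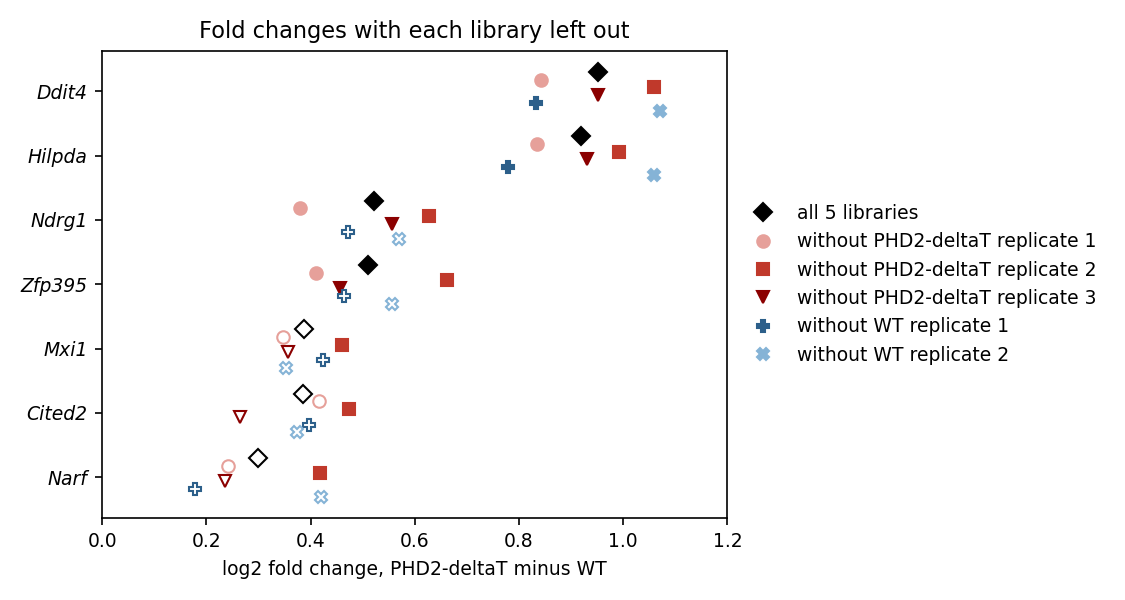
Log2 fold change of each member (horizontal axis) with all 5 libraries and with each library left out; filled symbols mark an adjusted p under 0.05 in limma-trend. Values stay above 0 throughout, from 0.18 for Narf without WT replicate 1 to 1.07 for Ddit4 without WT replicate 2.

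Partner genes of the members were read in the same fit, by lists of the pathways they act in. In the mTORC1 list, 17 of 18 partners of Ddit4 were tested, of which 1 rose and 1 fell. Sesn2, a stress-induced sestrin that restrains mTORC1, had 391, 452 and 511 normalized counts in PHD2-deltaT, against 326 and 289 in WT (log2 fold change 0.55, limma-trend adjusted p = 0.017). It was not called when WT replicate 2 (adjusted p = 0.21) or PHD2-deltaT replicate 3 (0.061) was left out. Sesn3, another sestrin, fell from 5635 and 6057 in WT to 4241, 4176 and 4216 in PHD2-deltaT (-0.47, limma-trend adjusted p = 0.00044), in every fit that left out 1 library. These 2 relatives thus moved in opposite directions, with 1.02% of all genes called lower. Sesn1, also a sestrin, had a log2 fold change of -0.23 and did not pass (limma-trend adjusted p = 0.18). Every PHD2-deltaT value of Sesn1 lay below its WT values. Gatsl3 and Gatsl2, also called Castor1 and Castor2, had larger changes in size than Sesn1, in opposite directions. Their log2 fold changes were 0.57 and -0.39, and neither passed (limma-trend adjusted p = 0.093 and 0.10). Txnip, an arrestin-like inhibitor of glucose uptake, had a log2 fold change of 0.27 and did not pass (adjusted p = 0.060), and a predicted antisense gene covers 19.4% of its exon bases. Tsc1 (-0.11) and Tsc2 (-0.06), which form the complex through which REDD1 acts, did not pass either. The list's median log2 fold change was -0.03. Of the 17, 3 had an unadjusted limma-trend p under 0.05 in the higher direction and 3 in the lower. Over all genes tested the shares were 8.53% and 6.48%. For 3 of the 17 every PHD2-deltaT library lay above every WT library, and for 6 below. These held for 16% and 14.5% of all genes tested.

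Of the 2 tested relatives of Ndrg1, Ndrg2 rose and Ndrg3 did not pass. Ndrg2, a family member that is also stress-responsive, had 476, 313 and 398 normalized counts in PHD2-deltaT, against 244 and 209 in WT. Its log2 fold change of 0.79 ± 0.15 (SE, limma-trend adjusted p = 0.0052) was larger in size than that of Ndrg1, a difference that was not tested. Leaving out WT replicate 2 ended that call (adjusted p = 0.079). Ndrg3 had a log2 fold change of -0.01, with a 95% interval of -0.16 to 0.15.

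The partners of Mxi1 in the MYC and MAX network gave 0 calls among 11 tested, in limma-trend and in limma-voom on inferred reads. An unadjusted limma-trend p under 0.05 was found for 1 higher and 1 lower gene of the 11, and for 8.53% of all genes tested in the higher and 6.48% in the lower direction. The median log2 fold change was 0.01. Myc itself had 15125, 16812 and 15659 normalized counts in PHD2-deltaT, against 14160.1 and 13853 in WT (log2 fold change 0.18, limma-trend adjusted p = 0.24). Mxd4, a relative of Mxi1 that also antagonises MYC, had a log2 fold change of -0.31 (adjusted p = 0.18) and Mxd1 one of 0.25 (0.35). Over the list, 3 genes had every PHD2-deltaT library above every WT library (Myc, Mxd1 and Mnt) and 2 had every one below (Mxd4 and Mlxip), beside 16% and 14.5% of all genes tested.

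For Cited2, 0 of 6 tested partners were called in limma-trend or in limma-voom, and 1 had an unadjusted p under 0.05, in the higher direction. That gene was Cited4, a relative that also binds CBP and p300, with 89.2, 98.3 and 72.9 normalized counts against 54.4 and 50.5 (log2 fold change 0.71, limma-trend adjusted p = 0.079). The coactivators Crebbp (-0.19) and Ep300 (-0.16) did not pass with all libraries, and without PHD2-deltaT replicate 3 Crebbp was called lower (adjusted p = 0.042). The single tested relative of Narf, Narfl, an iron-sulfur cluster assembly factor, had a log2 fold change of 0.09 (adjusted p = 0.77). No relative of Zfp395 on the list was among the genes tested.

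**Figure D5:**
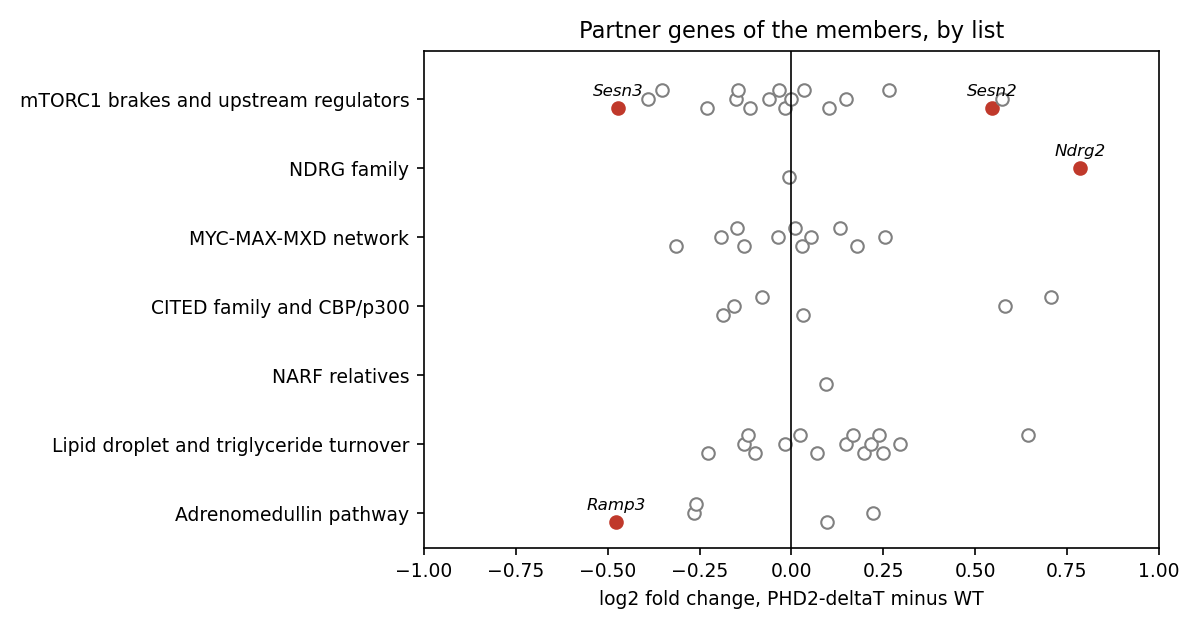
Log2 fold change (horizontal axis) of the tested partner genes, 1 row per list, with filled and named symbols for an adjusted p under 0.05 in limma-trend. Sesn2 and Ndrg2 lie to the right, Sesn3 and Ramp3 to the left, and the lipid, MYC and CITED rows hold no filled symbol.

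In the lipid list, which holds the partners of Hilpda in droplet storage and triglyceride turnover, 0 of 15 tested genes were called in limma-trend or in limma-voom. Of the 15, 4 had an unadjusted limma-trend p under 0.05 in the higher direction and 1 in the lower. Over all genes tested the shares were 8.53% and 6.48%. For 7 of the 15 every PHD2-deltaT library lay above every WT library, and for 2 below. These held for 16% and 14.5% of all genes tested. The median log2 fold change of the lipid list was 0.15. Pnpla2, which encodes the lipase ATGL that Hilpda inhibits, had 1988, 1963 and 2078 normalized counts in PHD2-deltaT, against 1848 and 1617 in WT (log2 fold change 0.22, limma-trend adjusted p = 0.17). The droplet coat gene Plin3 had a log2 fold change of 0.30 (adjusted p = 0.12) and the monoacylglycerol lipase gene Mgll one of 0.64 (0.16). Plin2, the coat protein that most cells use on droplets, had 0.20 (0.65). The other ATGL inhibitor on the list, G0s2, had -0.13 (0.93), with a 95% interval from -0.88 to 0.62 that excludes little.

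Although Adm is not listed, 5 genes of its pathway were tested, and 1 fell. Ramp3, an accessory chain that turns the receptor Calcrl into an adrenomedullin receptor, had 241, 231 and 228 normalized counts in PHD2-deltaT, against 296 and 357 in WT (log2 fold change -0.48, limma-trend adjusted p = 0.043). This call was lost when any 1 library other than WT replicate 1 was left out, with adjusted p of 0.055 without PHD2-deltaT replicate 1 and 0.51 without WT replicate 2. Calcrl (-0.27, adjusted p = 0.31) and Ramp1 (0.22, 0.54) did not pass.

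The genes whose profiles lay nearest to the called members were sought among 9491 tested genes whose mean normalized count was 50 or more. Predicted genes, with names of the form Gm and a number or ending in Rik, were left out of these candidates. Likeness was the Euclidean distance between mean-centred log2 profiles over the 5 libraries, a description with no test. Ddit4 and Hilpda were each other's nearest gene, at a distance of 0.10. The next were Bnip3l, a mitophagy receptor (0.16 from Ddit4), and Prelid2, a relative of mitochondrial lipid transfer proteins (0.13 from Hilpda). For Ndrg1 they were the glycolytic genes Hk1 (0.14) and Pfkfb3 (0.16). For Zfp395 they were Ncf1, a subunit of the phagocyte NADPH oxidase (0.13), and Ccng2, an atypical cyclin (0.13). The profiles include the difference between the genotypes, so genes near a called member differ between them by choice, and with 5 libraries many genes have similar profiles.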

How the data were processed

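RNA from sorted CD8 T cells, isolated by RNeasy Plus Mini kit, was made into Ovation SoLo libraries for paired-end sequencing, per the labels' protocols. Trimmomatic 0.36, STAR 2.5.3, HTSeq 0.9.1 and mm10 were named, per the submitters' processing notes. For scaling and strand, the settings were not given in the sources used here. For each gene the authors deposited a normalized signal (normalized counts per the file headers), log2 mean and log2 fold change columns (by their sign WT over PHD2-deltaT) and adjusted p-values headed FDR. In each library the deposited values were whole multiples of 1 step (tolerance 1e-06), with gaps from which reads were inferred (99.6% to 99.7% of values explained, 54.1% to 77.0% by chance).

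The filter kept genes reaching 10 in 2 or more libraries. In limma 3.58.1 (R 4.3.3), genotype was the single term of a fit to log2(value + 1), with a mean-variance trend; p-values are two-sided, adjusted by Benjamini-Hochberg, with a threshold of 0.05. Fold changes are on this scale. Exon positions and lengths came from GENCODE M21 on mm10. The test was tested on simulated data with the same spread setting for every gene, which cannot vouch for the calls made here. Replicate numbers follow the order of the labels within a genotype, since the labels give none. Members and lists were chosen with earlier results of these data known. Named are all members, called partners or up to 3 per list with the smallest p, and for each called member the 2 nearest profiles. Egln3, Bnip3, Vegfa, Sesn1, Gatsl3, Gatsl2, Tsc1, Tsc2, Mnt, Mlxip, Plin2, G0s2 and the marker genes were named after their values were seen. Limma-voom on inferred reads was added after seeing the data. Python 3.11.15 made tables and figures. A marker on the B cell list is not reported here.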

Additional observations from a re-analysis of the deposited data

How the results depend on the processing

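Over 105 member values under other settings, 0 turned direction, 89 stayed on their side of the threshold, 11 fell back over it and 5 newly passed. Without the mean-variance trend 0 members and 96 genes were called, and 0 partners in the mTORC1, NDRG and adrenomedullin lists; log2 fold changes were those of the full fit for Ddit4 (0.95), Hilpda (0.92), Ndrg1 (0.52) and Zfp395 (0.51), so only the spread assigned to them differed. In limma-voom on inferred reads 2 members were called, with adjusted p = 0.0504 for Ndrg1 (0.52) and 0.0535 for Zfp395 (0.51), and 0 adrenomedullin genes. Robust eBayes lost Zfp395 (0.51, adjusted p = 0.055). Median scaling and array weights added Mxi1 (0.39 and 0.40). The cause was not tested. Pseudocounts of 0.5 and 8, both other filters and quantile normalization kept 4 members called.

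With 1 library left out, the members called ran from 2 to 7 and genes from 244 (without WT replicate 2) to 523, beside 461 with all libraries. Log2 fold changes ran from 0.83 to 1.07 for Ddit4, 0.78 to 1.06 for Hilpda, 0.38 to 0.63 for Ndrg1, 0.41 to 0.66 for Zfp395, 0.35 to 0.46 for Mxi1, 0.26 to 0.47 for Cited2 and 0.18 to 0.42 for Narf. Calls ran from 1 to 3 in the mTORC1 list, 0 to 1 in the NDRG, CITED and adrenomedullin lists. A lone WT library was there assumed to vary like the PHD2-deltaT libraries. No paired analysis was possible because the labels give the libraries no replicate numbers.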
